A study of Homo sapiens with 18 samples.

Results

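The genes described are 9 transcripts of the p53 pathway and of the cell's response to damage and stress: MDM2, GADD45A, GADD45B, SESN1, TP53INP1, TP53I3, ZMAT3, FAS and TNFRSF10B. They were given as a set of symbols, chosen with earlier results of these data known, and found by gene symbol in the deposited table of gene counts, where all 9 had 1 row each among 58735 genes. All 9 also passed the filter on low counts that left 17346 genes for testing.

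RNA was sequenced in 18 libraries of RPMI-8402, an established line of T-cell acute lymphoblastic leukaemia, a cancer of immature T cells that often depends on NOTCH1 signalling. The cells either had PIK3R1 knocked out (KO) or carried a non-targeting control (NT). PIK3R1 encodes p85-alpha, a regulatory subunit of phosphoinositide 3-kinase (PI3K). Each genotype was kept for 24 h in the solvent DMSO, in CB-103, which blocks the NOTCH transcription complex in the nucleus, or in LY3039278, a gamma-secretase inhibitor (GSI), which stops NOTCH receptors from being cut and released from the membrane. This gave 6 groups of 3 replicates: NT DMSO, NT CB-103, NT GSI, KO DMSO, KO CB-103 and KO GSI. All samples come from 1 cell line. The sources used here give neither doses nor the number of knockout clones. The labels do not say that replicates were separate cultures, so p-values measure only the spread between these libraries, which may be technical.

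The transcription factor p53 is held low by MDM2, a ubiquitin ligase that marks it for degradation and is itself induced by p53, which closes a feedback loop. When DNA damage or another stress frees p53, it can switch on genes for cell-cycle arrest, repair, metabolism and death. Many of these genes also answer to other factors: GADD45A, TNFRSF10B and SESN2 are known targets of the ATF4 and CHOP arm of the stress response, and SESN1 and GADD45A are known targets of FOXO factors, which PI3K signalling restrains.

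MDM2 has a promoter upstream of its first exon and a second one inside its first intron, and the second is the one through which p53 acts. The sequence just before the second start is shown because the transcript estimates described further on are grouped by annotated start. It was read from the RefSeq promoter table (GRCh38.p14), lies at chr12:68808767-68809001 on the plus strand within intron 1 and touches no exon of GENCODE release 29. Capitals mark the best match to a full p53 site, at chr12:68808923-68808942, which departs from the consensus at 2 of 20 bases.
MDM2 second promoter: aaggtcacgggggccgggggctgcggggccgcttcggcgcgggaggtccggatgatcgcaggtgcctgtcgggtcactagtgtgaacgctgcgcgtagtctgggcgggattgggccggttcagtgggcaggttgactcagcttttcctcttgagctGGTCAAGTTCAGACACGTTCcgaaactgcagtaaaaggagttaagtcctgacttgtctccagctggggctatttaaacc
The only other match among the members lay in FAS, at chr10:88991309-88991328 on the plus strand, where it overlaps an exon of some annotated transcripts and also has 2 mismatches.
FAS site: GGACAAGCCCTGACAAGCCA

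The search looked on both strands for 2 p53 half-sites with no spacer and at most 2 mismatches in windows from 250 bases before to 50 bases after each RefSeq start. Such a match stood in 228 of 35114 windows (0.649%) and in 3 of the 14 windows of members, which belong to MDM2 and FAS. The matching windows of MDM2 overlap and hold the same site, so they are not separate matches. The members were picked as genes of the p53 pathway, so no enrichment is read from these counts. Windows were found for 6 members, and GADD45A, TP53INP1 and TNFRSF10B had none. A shorter search for the C/EBP-ATF element TGATGNAA matched 3.62% of all windows and 0 of the 14, and the forkhead motif GTAAACA matched 3.42% and 0 of the 14. The AP-1 motif TGANTCA matched 7.71% of all windows and 3 of the 14, in FAS and in the same overlapping windows at the second promoter of MDM2. The NOTCH-CSL motif TGGGAA matched 24% of all windows and 6 of the 14, in ZMAT3, SESN1, FAS and MDM2. Its MDM2 matches are the same site in the overlapping windows at the second promoter, so they are not separate matches. The E-box CACGTG matched 7.26% of all windows and 1 of the 14, in GADD45B. A single p53 half-site without mismatch matched 6.63% of all windows and 2 of the 14, in SESN1 and FAS. These are matches of letters in short windows and were not tested for binding.

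Library totals ranged from 30416183 to 43558387 estimated reads. The targeted gene was checked first. PIK3R1 averaged 44.1 ± 1.53 CPM (library-scaled counts, adjusted by TMM factors; SD, n = 3) in NT DMSO and 22.5 ± 1.02 in KO DMSO, a log2 difference of -0.97 ± 0.09 (SE; adjusted p = 4.1e-07). It also stood lower in KO than in NT cells under GSI (-0.95), but under CB-103 the difference was -0.16 (adjusted p = 0.17), so PIK3R1 RNA does not separate the genotypes there. The T-lineage markers summed to between 1161 and 2032 CPM in every library and the B-cell markers to at most 5.67 CPM. In NT cells the T-lineage sum was 1943 to 2032 CPM with DMSO and 1161 to 1303 with CB-103. In KO cells it was 1710 to 1810 and 1350 to 1445. Of 9 tested T-lineage markers, CB-103 raised 0 and lowered 8 in NT cells (29.5% and 28.7% of all genes). In KO cells it raised 1 and lowered 7 (24.9% and 23.7% of all genes). CD2, one of these markers, fell from 64.6 CPM in NT DMSO to 5.23 CPM in NT CB-103. The adherent-cell markers summed to between 78.6 and 287 CPM, mostly PECAM1. The myeloid marker list rose to between 32.5 and 40.3 CPM in KO CB-103, nearly all of it CD68, a lysosomal protein gene, and the share of mitochondrially encoded RNA ran from 3.09% to 3.72% in NT DMSO, 4.73% to 5.47% in NT CB-103, 1.90% to 5.51% in NT GSI, 1.69% to 1.88% in KO DMSO, 1.89% to 2.69% in KO CB-103 and 2.40% to 2.57% in KO GSI. It was thus higher with CB-103 than with DMSO in both genotypes and lower in KO than in NT cells under DMSO and CB-103. The part of these shifts in the results below was not tested, and in bulk RNA fewer cells of a type and less RNA per cell cannot be told apart.

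Per unit of length, MDM2 was by far the most abundant member. Its transcripts summed to 70.5 ± 4.31 TPM (length-corrected transcript abundance; SD, n = 3) in NT DMSO, against 16.2 TPM for GADD45A, 9.10 for TNFRSF10B, 8.37 for TP53INP1, 7.53 for SESN1, 6.14 for GADD45B, 2.69 for TP53I3, 2.03 for ZMAT3 and 1.49 for FAS. All following levels are in CPM, which serve to compare 1 gene across libraries and not 1 gene with another.

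The members did not move as a block. CB-103 raised GADD45A and TNFRSF10B in both genotypes and lowered SESN1, GADD45B and MDM2, whereas GSI lowered GADD45A and TNFRSF10B and raised SESN1 and ZMAT3. TP53INP1 rose with both inhibitors in both genotypes. Against NT cells, KO cells had more FAS and TNFRSF10B and less SESN1 under each of the 3 treatments.

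In numbers, 8 of the 9 members passed an adjusted p of 0.05 in NT CB-103 against NT DMSO, 3 higher and 5 lower, where 58.2% of all genes tested did. In KO CB-103 against KO DMSO 6 passed, 3 higher and 3 lower (48.6% of all genes). For GSI against DMSO, 5 passed in NT cells, 3 higher and 2 lower (24.7% of all genes), and 7 in KO cells, 5 higher and 2 lower (19.3%). The median log2 change of the members was -0.29 for CB-103 in NT cells and 0.04 in KO cells, and 0.17 and 0.29 for GSI, beside medians between -0.01 and 0.04 over all genes. The 2 inhibitor comparisons within a genotype share their DMSO libraries.

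**Figure D1:**
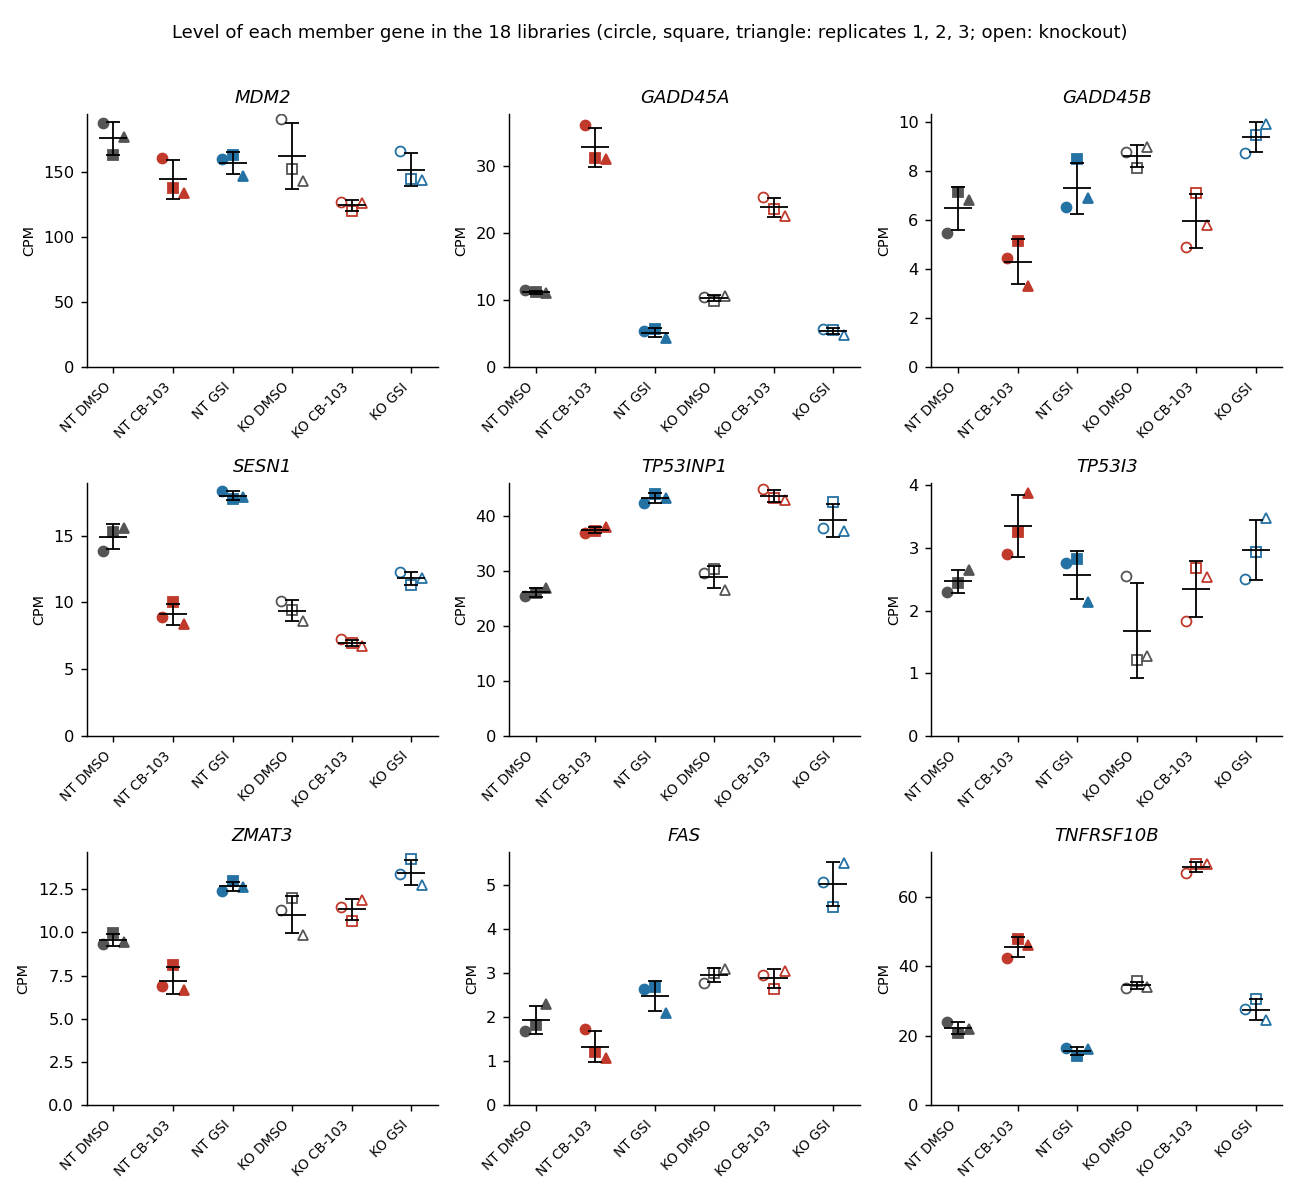
Level of the 9 member genes in CPM (vertical axis, from 0) in the 18 libraries, by group; circles, squares and triangles are replicates 1, 2 and 3, open symbols are PIK3R1 knockout cells, and bars give the mean and SD of 3. TNFRSF10B runs from a mean of 15.7 CPM in NT GSI to 68.6 CPM in KO CB-103 with no overlap between neighbouring groups, and GADD45A separates the 3 treatments in either genotype.

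MDM2 (ENSG00000135679, hg38 12:68808176-68850686, plus strand) fell modestly with CB-103. Its level was 188, 162 and 177 CPM in replicates 1 to 3 of NT DMSO, 161, 138 and 134 in NT CB-103, 190, 152 and 143 in KO DMSO, and 127, 119 and 126 in KO CB-103. The CB-103 libraries lay below the DMSO libraries in both genotypes without overlap. The log2 change was -0.29 ± 0.10 in NT cells (adjusted p = 0.015) and -0.38 ± 0.10 in KO cells (adjusted p = 0.0027). The NT call was lost without NT DMSO replicate 1, NT CB-103 replicate 2 or NT CB-103 replicate 3 (adjusted p of 0.069, 0.060 and 0.072). With GSI, MDM2 stood at 160, 163 and 147 CPM in NT cells and 166, 145 and 144 in KO cells, overlapping DMSO, with differences of -0.17 ± 0.10 and -0.10 ± 0.10 that did not pass. MDM2 was also the only member that differed between replicate 1 and the other replicates across the groups (0.18 higher, adjusted p = 0.0042), and a processed pseudogene annotated inside its locus held 236 counts on average beside 5482 for MDM2.

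The deposited transcript estimates were summed by the annotated start of each MDM2 transcript. They are model-based abundances, and no start site was measured. In the annotation, 7 transcripts start at the first promoter, from position 68808176 to 68808464, and 22 at the second, from 68809002 to 68809227, right after the sequence printed above. In NT DMSO the first group summed to 24.9 ± 1.42 TPM and the second to 18.9 ± 1.04 TPM (SD, n = 3). In NT CB-103 they summed to 20.8 ± 1.42 and 14.8 ± 2.15 TPM, in KO DMSO to 27.0 ± 1.45 and 20.2 ± 2.62, and in KO CB-103 to 19.6 ± 1.55 and 16.4 ± 2.10. So both sums were lower with CB-103 in the means. The second promoter's share of the 2 was 43.2% ± 2.56 in NT DMSO, 41.5% ± 3.69 in NT CB-103, 45.2% ± 0.67 in NT GSI, 42.7% ± 3.10 in KO DMSO, 45.6% ± 5.07 in KO CB-103 and 44.4% ± 1.77 in KO GSI. The shares in single libraries overlapped between every CB-103 group and its DMSO group, and no test was run on them.

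Another part of the MDM2 estimate came from 3 short transcripts that start in its last exons, with 25.7 ± 4.54 TPM in NT DMSO and 15.9 ± 0.44 in KO CB-103. Of these, MDM2-227, chosen after its values were seen, was estimated at 15.1, 11.5, 12.9 and 19.8 TPM in replicate 1 of NT DMSO, NT CB-103, NT GSI and KO DMSO, and at no more than 2.03 TPM in replicates 2 and 3 of those groups. Within these groups the estimate of this transcript was high in replicate 1 alone.

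**Figure D2:**
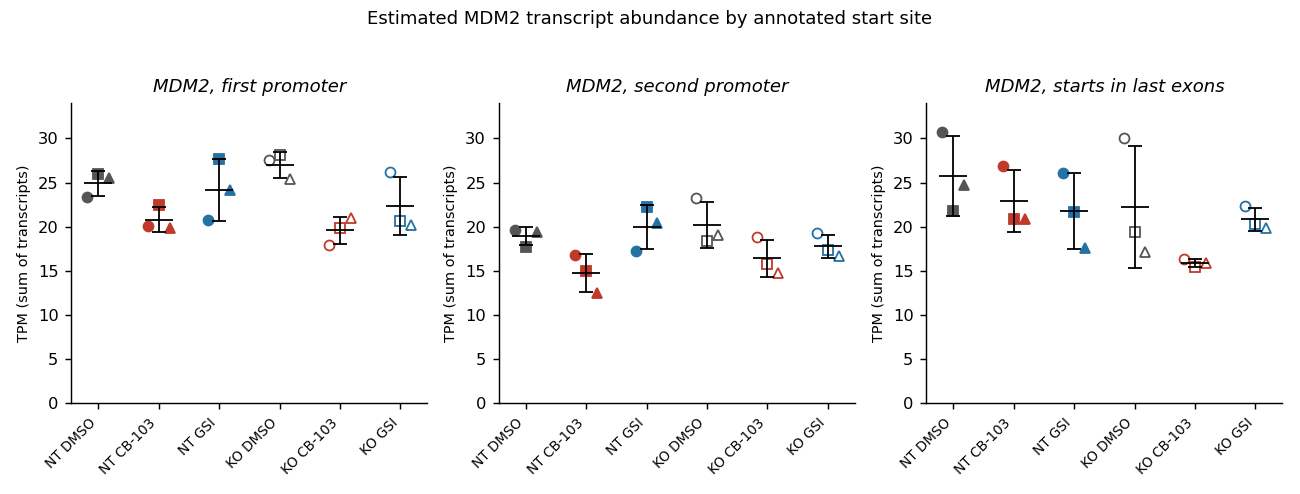
Summed TPM of MDM2 transcripts (vertical axis, from 0) whose annotated start lies at the first promoter, at the second promoter or in the last exons, in the 18 libraries by group, with mean and SD of 3; symbols as in the plot of levels by library. Means at the first promoter run from 19.6 TPM in KO CB-103 to 27.0 TPM in KO DMSO, and the last-exon class is high in replicate 1 of NT DMSO and KO DMSO.

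The GADD45 proteins are small stress sensors that bind cell-cycle and repair proteins and the kinase MAP3K4. With CB-103 the 2 measured relatives went opposite ways. GADD45A (ENSG00000116717, 1:67685061-67688338, plus strand) stood at 11.5, 11.2 and 11.1 CPM in NT DMSO, 36.2, 31.3 and 31.1 in NT CB-103, and 5.46, 5.71 and 4.42 in NT GSI. In KO cells it stood at 10.5, 9.87 and 10.7 with DMSO, 25.4, 23.6 and 22.6 with CB-103, and 5.81, 5.56 and 4.88 with GSI. Treatments did not overlap in either genotype. CB-103 raised it 2.92-fold in NT cells (log2 1.55 ± 0.09, adjusted p = 7.9e-11) and 2.31-fold in KO cells (1.21 ± 0.09, adjusted p = 4.4e-09), and GSI lowered it by factors of 2.17 (-1.12 ± 0.10, adjusted p = 1.6e-07) and 1.90 (-0.93 ± 0.10, adjusted p = 2.6e-06). The CB-103 level in KO cells lay 0.46 below that in NT cells (adjusted p = 0.00043), but the difference between the 2 responses (-0.34 ± 0.13) did not pass (adjusted p = 0.086).

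GADD45B (ENSG00000099860, 19:2476122-2478259, plus strand) fell with CB-103, from 5.47, 7.13 and 6.81 CPM to 4.46, 5.13 and 3.32 in NT cells and from 8.77, 8.11 and 8.95 to 4.92, 7.10 and 5.81 in KO cells. The changes were -0.59 ± 0.16 (adjusted p = 0.0044) and -0.53 ± 0.16 (adjusted p = 0.0092). The second missed the threshold without KO CB-103 replicate 1 and with replicates 2 and 3 only (adjusted p = 0.13 for the latter). GSI-treated libraries held 6.51, 8.47 and 6.89 CPM (NT) and 8.74, 9.45 and 9.92 CPM (KO), and neither change passed. The third relative, GADD45G, was near 0 and did not pass the filter.

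Among the 6 kinases of the GADD45 branch, CB-103 raised 1 and lowered 3 in NT cells (29.5% and 28.7% of all genes). In KO cells it raised 1 and lowered 2 (24.9% and 23.7% of all genes). MAP2K3 rose (0.40 ± 0.06 and 0.54 ± 0.06 in NT and KO cells) and MAP2K6 fell (-1.06 ± 0.11 and -0.50 ± 0.10), although both encode activators of p38. MAPK14, which encodes p38-alpha, fell by 0.29 in NT cells. With GSI, 0 of the 6 passed in NT cells by edgeR (24.7% of all genes). In KO cells 1 passed, MAP2K7 (-0.31 ± 0.07), beside 19.3% of all genes.

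SESN1 encodes sestrin 1, a stress-induced protein that restrains the growth kinase mTORC1. SESN1 (ENSG00000080546, 6:108986437-109094819, minus strand) was 13.8, 15.3 and 15.6 CPM in NT DMSO, 8.89, 10.0 and 8.42 in NT CB-103, and 18.3, 17.7 and 17.9 in NT GSI. In KO cells it was 10.1, 9.46 and 8.59 with DMSO, 7.25, 6.95 and 6.79 with CB-103, and 12.3, 11.3 and 11.8 with GSI. The gene was lowest with CB-103 and highest with GSI in each genotype, and KO cells lay below NT cells under every treatment. CB-103 lowered it by 0.71 ± 0.08 (adjusted p = 6.2e-07) in NT cells and by 0.42 ± 0.08 (adjusted p = 4.0e-04) in KO cells, and GSI raised it by 0.27 ± 0.08 (adjusted p = 0.018) and 0.33 ± 0.08 (adjusted p = 0.0085). The NT GSI call was lost without NT DMSO replicate 1 or any of the NT GSI libraries (adjusted p from 0.050 to 0.095). It was also lost with replicates 2 and 3 only (adjusted p = 0.15) and with no filter on low counts (adjusted p = 0.11). The KO GSI call was lost with no filter as well (adjusted p = 0.06).

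The other sestrins followed SESN1 only in part. SESN2, a known target of ATF4 as well as of p53, rose with CB-103, 4.30-fold in NT cells (2.11 ± 0.06, adjusted p = 5.7e-15) and 4.56-fold in KO cells, and fell with GSI by 0.56 ± 0.06 and 0.34 ± 0.06. SESN3, a FOXO target, rose with GSI as SESN1 did (0.70 ± 0.09 in NT and 0.37 ± 0.09 in KO cells) and was 1.94-fold higher in KO DMSO than in NT DMSO (0.95 ± 0.09, adjusted p = 9.1e-07), where SESN1 was lower.

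TP53INP1 encodes a nuclear protein that takes part in autophagy and p53-dependent death. TP53INP1 (ENSG00000164938, 8:94925972-94949411, minus strand) was 25.4, 26.0 and 27.0 CPM in NT DMSO, 36.9, 37.3 and 37.9 in NT CB-103, and 42.3, 44.0 and 43.3 in NT GSI. In KO cells it was 29.6, 30.4 and 26.6 with DMSO, 44.9, 43.2 and 42.9 with CB-103, and 37.7, 42.5 and 37.2 with GSI. It was the only member raised by both inhibitors in both genotypes. The changes were 0.52 ± 0.06 and 0.60 ± 0.06 for CB-103 and 0.72 ± 0.06 and 0.44 ± 0.06 for GSI in NT and KO cells, all with adjusted p of 3.8e-05 or less. Its GSI level was the higher of the 2 inhibitors in NT cells (CB-103 minus GSI -0.21 ± 0.06, adjusted p = 0.0049) and the lower in KO cells (0.16 ± 0.06, adjusted p = 0.034), the latter call lost without KO GSI replicate 1 or 3 or any one KO CB-103 library (adjusted p from 0.12 to 0.24), and with DESeq2 size factors (adjusted p = 0.079). The KO call also ended with the DESeq2 Wald test, no filter, the compared groups alone and replicates 2 and 3 only (adjusted p from 0.073 to 0.24). NDUFAF6, which overlaps the locus on the opposite strand with 654 counts on average beside 1300 for TP53INP1, fell with CB-103 by 0.35 and 0.33.

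TP53I3 (PIG3) encodes a quinone oxidoreductase and was scarce, with 46 to 133 counts per library. TP53I3 (ENSG00000115129, 2:24077433-24085861, minus strand) was 2.30, 2.44 and 2.65 CPM in NT DMSO, 2.90, 3.25 and 3.88 in NT CB-103, and 2.55, 1.22 and 1.28 in KO DMSO. KO DMSO replicate 1 lay within the NT DMSO range and the other KO DMSO libraries lay below it. With CB-103 its change was 0.44 ± 0.24 in NT and 0.48 ± 0.25 in KO cells, neither passing, and with GSI 0.06 ± 0.24 and 0.82 ± 0.25 (adjusted p = 0.025 in KO cells, with overlapping groups). That last call was lost without replicate 2 or 3 of KO DMSO or of KO GSI (adjusted p from 0.057 to 0.11). It was also lost in a fit of the compared groups alone (adjusted p = 0.084). Without KO DMSO replicate 1, KO DMSO lay 0.98 below NT DMSO (adjusted p = 0.0034), against -0.56 (adjusted p = 0.12) with it, and CB-103 raised the gene in KO cells by 0.91 (adjusted p = 0.0021). The locus overlaps FAM228B on the opposite strand, which held 144 counts on average beside 91.1 for TP53I3 and rose by 0.70 with CB-103 in NT cells.

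ZMAT3 (Wig-1) encodes a zinc finger protein that binds RNA and is a widely used p53 target. ZMAT3 (ENSG00000172667, 3:179017223-179072279, minus strand) was 9.30, 9.94 and 9.44 CPM in NT DMSO, 6.88, 8.09 and 6.67 in NT CB-103, and 12.4, 12.9 and 12.6 in NT GSI. In KO cells it was 11.3, 12.0 and 9.84 with DMSO, 11.5, 10.7 and 11.8 with CB-103, and 13.4, 14.2 and 12.8 with GSI. In NT cells CB-103 lowered it (-0.41 ± 0.09, adjusted p = 0.00088), while in KO cells the DMSO and CB-103 libraries overlapped (0.04 ± 0.09, adjusted p = 0.76). GSI raised it by 0.41 ± 0.09 (adjusted p = 0.0026) in NT cells and by 0.29 ± 0.09 (adjusted p = 0.030) in KO cells, where leaving out KO DMSO replicate 1 or 3 or KO GSI replicate 1 or 2 ended the call (adjusted p from 0.055 to 0.12). This KO call also ended with no filter, with the compared groups alone and with replicates 2 and 3 only (adjusted p of 0.15, 0.07 and 0.086). Of 5 tested relatives of the members by family, which include SESN2 and SESN3, CB-103 raised 3 and lowered 0 in NT cells (29.5% and 28.7% of all genes). In KO cells it raised 1 and lowered 0 (24.9% and 23.7% of all genes). GSI raised 2 and lowered 1 in each genotype (9.67% and 15.0% of all genes in NT cells, 9.69% and 9.58% in KO cells).

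FAS and TNFRSF10B (DR5) encode receptors that pass death signals from FAS ligand and from TRAIL to caspase 8. FAS (ENSG00000026103, 10:88990582-89015785, plus strand) was the least abundant member in NT DMSO, with 37 to 175 counts per library over all groups. ACTA2, on the opposite strand of the locus, held 14.0 counts on average beside 98.6 and passed the test in 0 of the 7 comparisons of an inhibitor with DMSO or of KO with NT by edgeR. It was 1.70, 1.82 and 2.30 CPM in NT DMSO, 1.73, 1.21 and 1.08 in NT CB-103, and 2.65, 2.70 and 2.11 in NT GSI. In KO cells it was 2.78, 3.00 and 3.11 with DMSO, 2.97, 2.64 and 3.05 with CB-103, and 5.07, 4.51 and 5.51 with GSI. KO GSI stood above every other group. In KO cells GSI raised FAS 1.70-fold (0.76 ± 0.17, adjusted p = 0.0036) and CB-103 left overlapping levels (-0.04 ± 0.17, adjusted p = 0.87). In NT cells CB-103 lowered FAS by 0.53 ± 0.18 (adjusted p = 0.019) with overlapping groups, and the call was lost without NT DMSO replicate 3, NT CB-103 replicate 2 or NT CB-103 replicate 3 (adjusted p of 0.11, 0.063 and 0.089). The same call was lost with no filter on low counts (adjusted p = 0.069) and in a fit of the compared groups alone (adjusted p = 0.074).

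TNFRSF10B (ENSG00000120889, 8:23020133-23069179, minus strand) separated all 6 groups. Its level was 24.1, 20.8 and 21.9 CPM in NT DMSO, 42.4, 47.9 and 46.3 in NT CB-103, and 16.5, 14.3 and 16.1 in NT GSI. In KO cells it was 33.8, 35.7 and 34.1 with DMSO, 66.9, 69.5 and 69.4 with CB-103, and 27.7, 30.6 and 24.5 with GSI. From low to high the groups ran NT GSI, NT DMSO, KO GSI, KO DMSO, NT CB-103 and KO CB-103, with no 2 neighbours overlapping, and the group means of SESN1 ran in exactly the reverse order. CB-103 raised it 2.04-fold in NT cells (1.03 ± 0.08, adjusted p = 2.5e-09) and 1.99-fold in KO cells (0.99 ± 0.08, adjusted p = 5.4e-09). GSI lowered it by 0.51 ± 0.08 (adjusted p = 0.00016) and by 0.32 ± 0.08 (adjusted p = 0.0067), the second not called without KO DMSO replicate 2 (adjusted p = 0.057). Its locus overlaps RHOBTB2 on the opposite strand, with 1318 counts on average beside 1267. Libraries were made with a stranded kit, whether counting used the strand is not stated, and RHOBTB2 fell in all 4 comparisons of an inhibitor with DMSO, by 2.63 for CB-103 in NT cells.

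**Figure D3:**
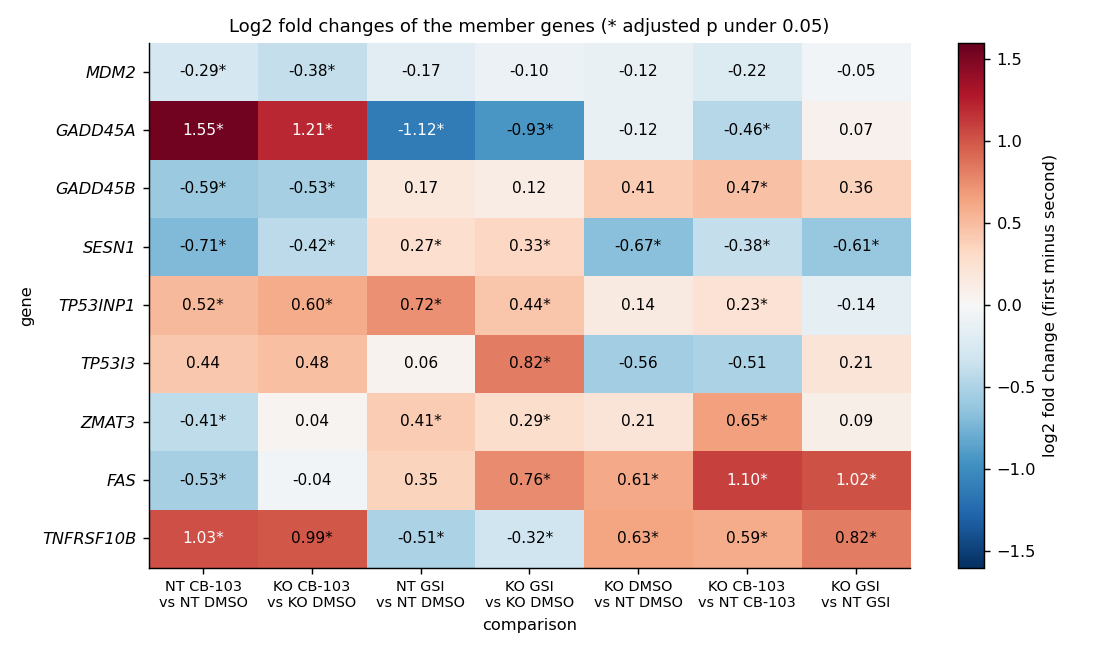
Log2 fold change (number and colour, first group minus second) of each member gene (rows) in the 4 comparisons of an inhibitor with DMSO and the 3 of KO with NT cells (columns); an asterisk marks an adjusted p under 0.05. GADD45A reads 1.55 and 1.21 for CB-103 and -1.12 and -0.93 for GSI, and FAS reads 0.61, 1.10 and 1.02 for KO against NT.

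The next genes encode the ligands of these receptors and the proteins that relay their signal. Of 8 tested genes of the death receptor list, CB-103 raised 2 and lowered 5 in NT cells (29.5% and 28.7% of all genes). In KO cells it raised 2 and lowered 4 (24.9% and 23.7% of all genes). GSI raised 0 and lowered 3 in NT cells (9.67% and 15.0%) and raised 0 and lowered 2 in KO cells (9.69% and 9.58%). TNFSF10, the gene of TRAIL, fell from 429, 395 and 409 CPM in NT DMSO to 82.6, 73.9 and 74.8 in NT CB-103 and to 73.0, 69.9 and 64.7 in NT GSI. In log2 units the falls were -2.41 ± 0.06 and -2.57 ± 0.06 in NT cells and -1.68 ± 0.06 and -2.09 ± 0.06 in KO cells. FASLG, the gene of FAS ligand, did not pass the filter.

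CFLAR, which encodes the caspase 8 inhibitor c-FLIP, fell in all 4 comparisons, by 2.36 ± 0.08 and 1.88 ± 0.08 with CB-103 and by 1.28 ± 0.07 and 1.38 ± 0.07 with GSI in NT and KO cells. FADD, the adaptor, rose with CB-103 (1.08 ± 0.07 and 0.84 ± 0.07), and its GSI values of 0.01 ± 0.07 and 0.14 ± 0.07 did not pass. CASP8 rose with CB-103, by 0.55 ± 0.04 in KO cells. BID, which carries the signal to mitochondria, fell from a mean of 41.1 CPM in NT DMSO to 16.3 in NT CB-103 (-1.33 ± 0.08) and from 55.0 in KO DMSO to 38.5 in KO CB-103 (-0.51 ± 0.07). So with CB-103, transcripts of TNFRSF10B, FADD and CASP8 rose while those of TNFSF10, CFLAR and BID fell.

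**Figure D4:**
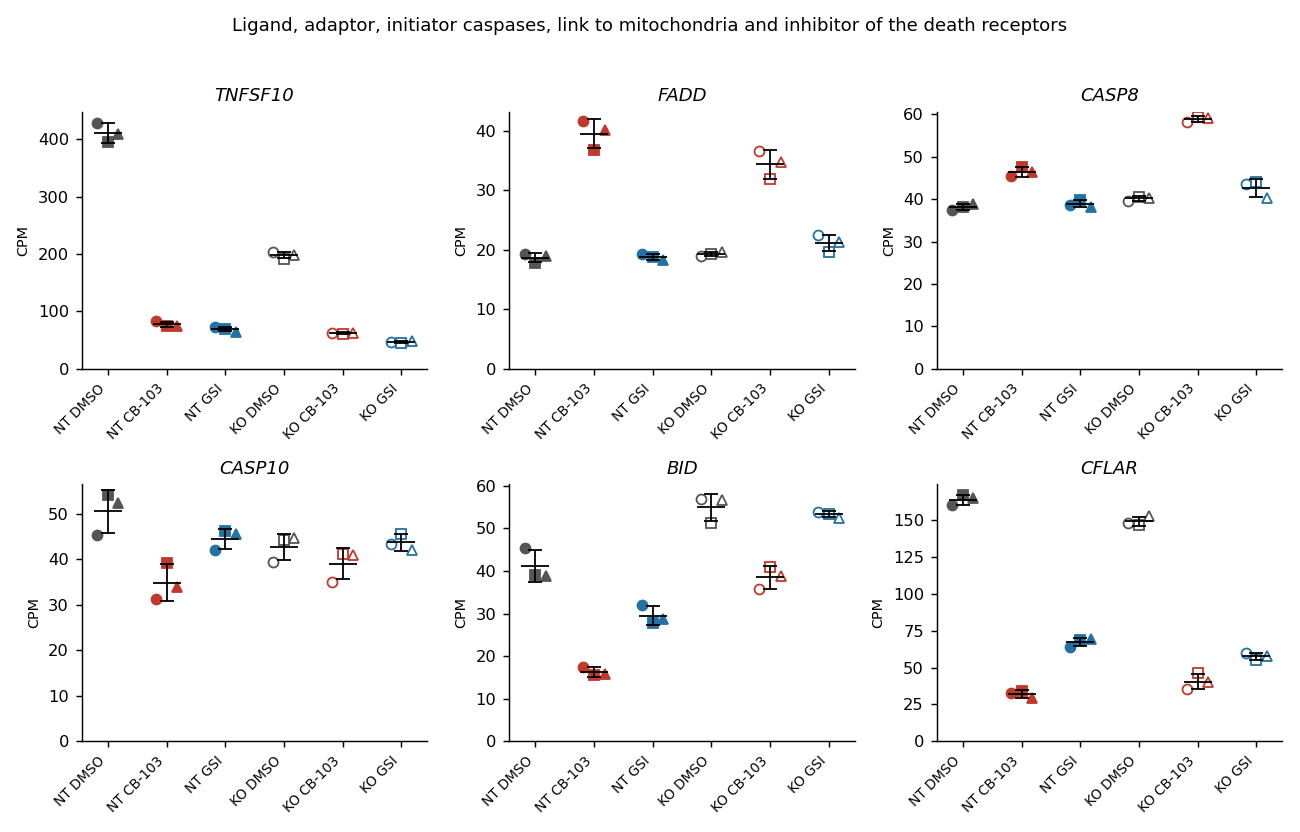
Level in CPM (vertical axis, from 0) of TNFSF10, FADD, CASP8, CASP10, BID and CFLAR in the 18 libraries by group, with mean and SD of 3; symbols as in the plot of member levels. TNFSF10 falls from a mean of 411 CPM in NT DMSO to 77.1 in NT CB-103 and 69.2 in NT GSI, and FADD has its highest means in the NT and KO CB-103 groups, 39.6 and 34.4 CPM.

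The next list holds genes of proteins that control p53. Of 9 tested, CB-103 raised 5 and lowered 2 in NT cells (29.5% and 28.7% of all genes). In KO cells it raised 2 and lowered 2 (24.9% and 23.7% of all genes). GSI raised 1 and lowered 4 in NT cells (9.67% and 15.0%) and raised 0 and lowered 2 in KO cells (9.69% and 9.58%). USP7, which encodes the deubiquitinase of MDM2 and p53, fell in all 4 comparisons, by 1.15 ± 0.06 and 0.87 ± 0.06 with CB-103 and by 1.07 ± 0.06 and 0.97 ± 0.06 with GSI in NT and KO cells. MDM4, the partner of MDM2, rose with CB-103 in NT cells (0.70 ± 0.15), where MDM2 fell. In KO cells, where MDM2 fell too, MDM4 overlapped, with 33.0, 45.2 and 30.9 CPM in DMSO and 31.7, 45.4 and 35.8 in CB-103.

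Other p53 targets also changed in both directions. Of 22 tested genes of a list of other targets, CB-103 raised 9 and lowered 6 in NT cells (29.5% and 28.7% of all genes). In KO cells it raised 10 and lowered 5 (24.9% and 23.7% of all genes). GSI raised 3 and lowered 6 in NT cells (9.67% and 15.0%) and raised 6 and lowered 5 in KO cells (9.69% and 9.58%). Among the large rises with CB-103 were BBC3 (PUMA), a trigger of mitochondrial death, from 0.84 ± 0.09 to 10.2 ± 0.62 CPM in NT cells (3.59 ± 0.22) and by 3.31 ± 0.21 in KO cells, and CDKN1A (p21), an inhibitor of the cell cycle, from 0.36 ± 0.12 to 3.71 ± 0.44 CPM (3.38 ± 0.27) and by 2.27 ± 0.23. CD82, a membrane protein gene of the same list, fell in all 4 comparisons, by 1.59 ± 0.09 with CB-103 and by 0.80 ± 0.09 with GSI in NT cells. BTG2, an antiproliferative gene, rose with GSI (0.65 ± 0.05 and 0.63 ± 0.05). With GSI, CDKN1A differed by 0.53 ± 0.30 and 0.10 ± 0.24 and BBC3 by 0.14 ± 0.24 and -0.13 ± 0.24 in NT and KO cells, none of which passed.

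**Figure D5:**
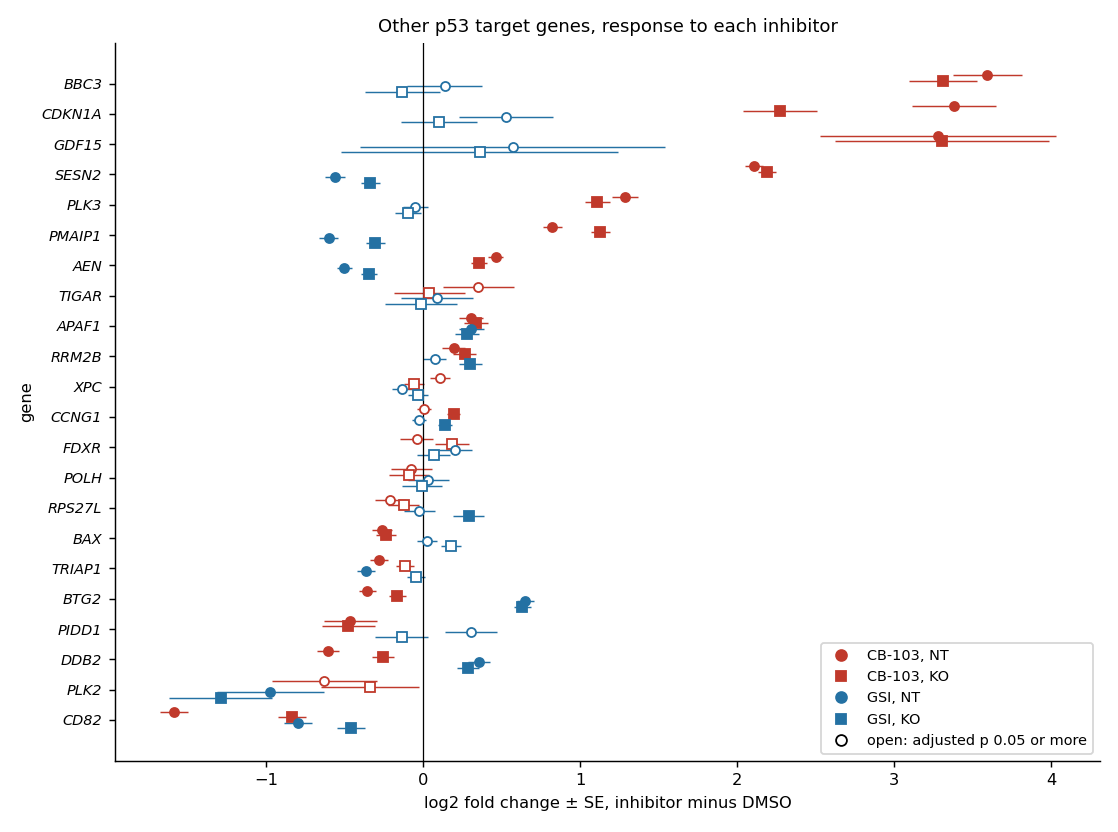
Log2 fold change and SE (horizontal axis, inhibitor minus DMSO) of 22 other p53 target genes (vertical axis) for CB-103 (red) and GSI (blue) in NT cells (circles) and KO cells (squares); open symbols did not pass an adjusted p of 0.05. BBC3 reads 3.59 and 3.31 and CD82 reads -1.59 and -0.84 for CB-103 in NT and KO cells.

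The last list holds genes of stress transcription factors. Of 10 tested, CB-103 raised 7 and lowered 1 in NT cells (29.5% and 28.7% of all genes). In KO cells it raised 7 and lowered 2 (24.9% and 23.7% of all genes). DDIT3, which encodes CHOP, rose 28.5-fold in NT cells (4.83 ± 0.08) and 22.6-fold in KO cells (4.50 ± 0.08), and JUN rose by 3.41 ± 0.15 and 3.98 ± 0.15. With GSI, 3 rose and 3 fell in NT cells (9.67% and 15.0% of all genes) and 2 rose and 3 fell in KO cells (9.69% and 9.58%). ATF4 fell with GSI by 0.68 ± 0.05 and 0.49 ± 0.04 in NT and KO cells. ATF3 rose with GSI by 0.87 ± 0.08 and 0.99 ± 0.08, and XBP1 by 0.43 ± 0.05 and 0.53 ± 0.05. DDIT3 stood at 9.19, 8.47 and 7.62 CPM in NT GSI beside 9.19, 10.3 and 10.4 in NT DMSO. In KO cells it stood at 7.63, 8.37 and 8.63 CPM with GSI and 8.68, 8.82 and 9.25 with DMSO.

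The knockout changed 3 members under DMSO, 2 higher and 1 lower, where 21.4% of all genes passed. TNFRSF10B was 1.55-fold higher in KO DMSO than in NT DMSO (0.63 ± 0.08, adjusted p = 1.1e-05), FAS 1.52-fold higher (0.61 ± 0.17, adjusted p = 0.017) and SESN1 lower by a factor of 1.59 (-0.67 ± 0.08, adjusted p = 1.0e-05). The FAS call was lost without NT DMSO replicate 1, NT DMSO replicate 2 or KO DMSO replicate 3 (adjusted p of 0.081, 0.063 and 0.058). It was also lost with no filter on low counts (adjusted p = 0.057) and with replicates 2 and 3 only (adjusted p = 0.083). GADD45B was higher by 0.41 ± 0.16 (adjusted p = 0.072) without overlap of the groups.

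Under CB-103, 7 members differed between KO and NT cells, 5 higher and 2 lower (37.0% of all genes), and under GSI 3 did, 2 higher and 1 lower (33.8%). FAS was 2.14-fold higher with CB-103 (1.10 ± 0.18, adjusted p = 0.00012) and 2.02-fold higher with GSI (1.02 ± 0.17, adjusted p = 2.0e-04). TNFRSF10B was higher by 0.59 ± 0.08 and 0.82 ± 0.08, and SESN1 lower, with values of -0.38 ± 0.09 and -0.61 ± 0.08. Under CB-103 the KO cells also had more ZMAT3 (0.65 ± 0.09, adjusted p = 2.2e-05), TP53INP1 (0.23 ± 0.06, adjusted p = 0.0054) and GADD45B (0.47 ± 0.16, adjusted p = 0.032, with overlapping groups and lost without NT CB-103 replicate 1 or 3 or KO CB-103 replicate 2 or 3, adjusted p from 0.052 to 0.19), and less GADD45A. The GADD45B call was also lost with the compared groups alone (adjusted p = 0.098), and that of TP53INP1 with replicates 2 and 3 only (adjusted p = 0.083). Of the other lists under DMSO, CDKN1A was 3.42-fold higher in KO cells (1.78 ± 0.28, adjusted p = 0.00013), and TNFSF10 was lower by a factor of 2.08 (-1.05 ± 0.05), DDB2 by 1.49 and CD82 by 1.82. Under DMSO, KO cells thus had more RNA of the TRAIL receptor TNFRSF10B and less of TRAIL.

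The 2 inhibitors were also compared with each other, without knowing how their doses relate. In NT cells 7 members differed, 2 higher and 5 lower with CB-103 (56.3% of all genes), and in KO cells 8 did, 3 higher and 5 lower (47.9%). GADD45A was 6.34-fold higher with CB-103 than with GSI in NT cells (2.66 ± 0.10) and 4.40-fold in KO cells (2.14 ± 0.10), and TNFRSF10B was 2.90-fold and 2.48-fold higher. Lower with CB-103 in both genotypes were SESN1 (-0.98 ± 0.08 and -0.75 ± 0.08), FAS (-0.88 ± 0.18 and -0.80 ± 0.17), GADD45B (-0.76 ± 0.16 and -0.66 ± 0.16) and ZMAT3 (-0.81 ± 0.09 and -0.25 ± 0.09). Leaving out KO CB-103 replicate 2, KO GSI replicate 1 or KO GSI replicate 2 ended the ZMAT3 call in KO cells (adjusted p of 0.061, 0.056 and 0.12). So did using no filter on low counts (adjusted p = 0.17) and replicates 2 and 3 only (adjusted p = 0.12). MDM2 was lower with CB-103 in KO cells (-0.29 ± 0.10, adjusted p = 0.019), a call lost without KO GSI replicate 1 (adjusted p = 0.10).

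Whether the knockout altered a response was tested directly as the KO change minus the NT change. For CB-103, 1 of 9 members passed, where 14.6% of all genes did: ZMAT3, whose fall in NT cells was not matched in KO cells (0.45 ± 0.13, adjusted p = 0.025). This call ended without NT DMSO replicate 2, KO DMSO replicate 3, or replicate 1 or 3 of NT CB-103 or KO CB-103 (adjusted p from 0.051 to 0.085). It also ended with no filter on low counts (adjusted p = 0.076) and with replicates 2 and 3 only (adjusted p = 0.11). A further 2 members, GADD45A and SESN1 (0.29 ± 0.12), had an unadjusted p under 0.05. For GSI, 0 of 9 passed by edgeR, where 2.79% of all genes did, and 2 of 9 had an unadjusted p under 0.05. The share of all genes at an unadjusted p under 0.05 was not computed for either response. By the DESeq2 Wald test 1 of 9 passed in the GSI response, where 1227 of all genes did, against 484 by edgeR. The member called by DESeq2 was TP53INP1 (edgeR difference -0.29 ± 0.08, adjusted p = 0.072). For TNFRSF10B the differences between the responses were -0.04, with a 95% interval from -0.28 to 0.19, for CB-103 and 0.18, from -0.06 to 0.43, for GSI.

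For each member, the genes whose log2 CPM followed it most closely were sought among 10427 or 10428 genes averaging 5 CPM or more. The likeness is the Pearson correlation over 18 libraries, which fall into 6 groups of replicates, and it is given as a description. GADD45A was closest to SLC39A14 (0.99), IARS1 (0.99) and LONP1 (0.99), and TNFRSF10B to P3H3 (0.98), TEX19 (0.98) and MIR4435-2HG (0.98). SESN1 was closest to PDE3B (0.98), ARHGEF26 (0.98) and RNF168 (0.97), FAS to TP53TG1 (0.96), ITM2A (0.95) and LAPTM5 (0.95), and ZMAT3 to TCF19 (0.96), MME (0.94) and ZNF521 (0.94). MDM2 was closest to SRSF4 (0.93), CSNK1G2 (0.92) and SCAF4 (0.90), GADD45B to ZNF124 (0.94), ENSG00000233836 (0.93) and BCOR (0.93), and TP53INP1 to C16orf54 (0.90), EMP3 (0.90) and KCNAB2 (0.89). TP53I3 had the weakest matches, MTFR1L (0.82), IQCC (0.74) and CDKN3 (0.72). None of these nearest genes was itself a member.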

How the data were processed

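PolyA-selected, stranded, paired-end RNA libraries were sequenced from 18 samples, per the labels' protocols. Tools listed in the submitters' processing notes, with no role stated, are Salmon 1.4.0, HISAT2 2.2.1, FastQC 0.11.9 and bcl2fastq 2.20, and the build is hg38. The authors deposited estimated counts per gene (expected counts), which they had rounded to whole numbers, and, per the file headers, TPM, estimated counts and effective length per transcript. Their variance-stabilised table was not used. Whether counting used the strand is not given in the sources used here.

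Genes were kept by filterByExpr, scaled by TMM and fitted in 1 model of 6 groups with the quasi-likelihood test of edgeR 4.0.16 (R 4.3.3), with Benjamini-Hochberg adjustment over all 17346 genes tested and a threshold of 0.05. Fold changes are on the log2 scale, first group minus second, with an SE taken as the size of the change over the square root of the F statistic, and intervals at 95% from 12 residual degrees of freedom. The functions were tested on simulated data. Totals of 30416183 to 43558387 limit precision mainly for FAS and TP53I3. Alternatives were DESeq2 1.42.0 (size factors, Wald test), limma-voom (limma 3.58.1), no filter, fits of the compared groups alone, a replicate block, transcript sums, mitochondrial genes left out, replicates 2 and 3 only, and leaving out each library.

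The members and gene lists were chosen with earlier results of these data known. Genes outside the members were named by rule: PIK3R1, CDKN1A and BBC3, up to 4 genes per list with the largest called change in each comparison of an inhibitor with DMSO and of KO with NT under DMSO, and the 3 genes most alike to each member. A gene so named is also given in other comparisons. A further gene of the rule and of the list of p53 regulators is not reported here and was left out of that list's counts. CD2, CD68 and PECAM1 were chosen after their values were seen. The flagged results also name list genes because their difference of responses passed. This adds PPM1D, CCNG1, TRIAP1 and CASP10, which the rule does not give and which were thus chosen after their values were seen. Gene loci follow GENCODE release 29 and promoter sequences RefSeq (GRCh38.p14).

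Replicate numbers recur in every group. Deviations from the group means of same-numbered samples correlated at no less than 0.257 for number 1, but as low as -0.071 for number 2 and 0.047 for number 3. Their median correlations were 0.299, 0.114 and 0.112 for numbers 1, 2 and 3. The main fit does not pair samples by number and so leaves out this likeness, which was clearest for number 1. A fit with a replicate block is among the alternatives, and the calls it changed are given below.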

Additional observations from a re-analysis of the deposited data

Results flagged for a closer look

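The change with an inhibitor differed between KO and NT cells (KO change minus NT change, edgeR, log2 units) for 1 member and for genes of the lists around it. Over all genes tested, 10.3% passed with a positive and 4.34% with a negative difference for CB-103, and 2.10% and 0.692% for GSI. The member was ZMAT3 with CB-103 (0.45 ± 0.13, adjusted p = 0.025). In the death receptor list, 5 of 8 tested genes changed less downward or more upward with CB-103 in KO cells: TNFSF10 (0.73 ± 0.08, adjusted p = 1.2e-05), BID (0.82 ± 0.11, adjusted p = 7.8e-05), CFLAR (0.48 ± 0.11, adjusted p = 0.0049), CASP8 (0.27 ± 0.06, adjusted p = 0.0072) and CASP10 (0.41 ± 0.12, adjusted p = 0.033). TNFSF10 (0.49 ± 0.08, adjusted p = 0.010) and BID (0.44 ± 0.10, adjusted p = 0.039) also differed in the response to GSI, in the same direction.

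Among other p53 targets the CB-103 responses differed for CD82 (0.75 ± 0.13, adjusted p = 0.00067), DDB2 (0.35 ± 0.10, adjusted p = 0.024), PMAIP1 (0.31 ± 0.08, adjusted p = 0.020), CCNG1 (0.19 ± 0.06, adjusted p = 0.049) and, in the other direction, CDKN1A (-1.11 ± 0.35, adjusted p = 0.043), whose DMSO level was already higher in KO cells. TRIAP1 differed in the GSI response (0.32 ± 0.08, adjusted p = 0.046).

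Among p53 regulators the CB-103 difference was 0.28 ± 0.08 for USP7, -0.30 ± 0.06 for TP53BP1, -0.39 ± 0.11 for PPM1D and -0.65 ± 0.21 for MDM4. Among stress factors it was 0.50 ± 0.06 for ATF4, -0.33 ± 0.11 for DDIT3 and -0.39 ± 0.07 for XBP1. Of the kinases, MAP2K6 differed with CB-103 (0.56 ± 0.15) and MAP2K7 with GSI (-0.44 ± 0.10). PIK3R1 itself differed with CB-103 (0.81 ± 0.13, adjusted p = 0.00034), falling in NT cells and rising in KO cells.

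Each of these 24 calls was recomputed in 21 other settings, and 8 kept the call in all 21: those of TNFSF10 with both inhibitors and of BID, CFLAR, CD82, ATF4, XBP1 and PIK3R1 with CB-103. The call was lost in 13 settings for DDIT3 (adjusted p from 0.051 to 0.14) and for CCNG1 (0.054 to 0.22), in 12 for TRIAP1 (0.053 to 0.18), in 11 for CDKN1A (0.055 to 0.13) and for MDM4 (0.052 to 0.13), and in 10 for CASP10 (0.053 to 0.11). DDIT3 lost it with DESeq2 size factors, limma-voom and no filter among others, and CDKN1A with limma-voom and no filter. It was lost in 9 for MAP2K7 and for BID with GSI, in 8 for ZMAT3 and USP7, in 6 for DDB2, in 5 for PMAIP1, in 2 for PPM1D and CASP8, and in 1 for TP53BP1 and MAP2K6.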

How the results depend on the processing

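Of 99 results (9 members in 11 comparisons), 55 were called, 40 of these in every setting tried (15 per comparison of 2 groups, 21 per difference of responses), and 0 of the 55 reversed. Of the 44 not called, 18 were called in some setting and 13 reversed in some. With sums of transcript estimates the members called became 5 for KO against NT under DMSO, 6 for KO against NT under GSI, 3 for the CB-103 response (KO minus NT) and 1 for the GSI response. Calls over all genes rose too, from 3720 to 4740, from 5861 to 6754, from 2533 to 3563 and from 484 to 997. The member count for the CB-103 response was 0 with no filter (2443 of all genes) and 0 with replicates 2 and 3 only (2373). That for the GSI response was 1 with the DESeq2 Wald test (1227 of all genes). With the replicate block, as an additive term, the CB-103 response gave 2 members and the GSI response 1. Over all genes the block gave 3373 and 1291 calls for these responses, against 2533 and 484 without it. Member calls were gained for GADD45A in the CB-103 response (-0.34, adjusted p = 0.037), TP53INP1 in the GSI response (-0.28, adjusted p = 0.043), GADD45B in KO against NT under DMSO (0.42, adjusted p = 0.030) and GSI (0.37, adjusted p = 0.037) and MDM2 under CB-103 (-0.21, adjusted p = 0.015). With the block 0 member calls were lost, and 13 of 18 libraries correlated best with a library of their own number. Leaving out each library gave 6 to 8 members called for CB-103 and 4 to 5 for GSI in NT cells, 5 to 7 and 5 to 6 in KO cells, 2 to 5 for KO against NT under DMSO, 6 to 7 under CB-103 and 3 to 4 under GSI, 7 and 5 to 7 between inhibitors in NT and KO cells, and 0 to 1 for each response. Values that reversed, all of results not called, were as follows. Transcript sums gave 0.042 for FAS (KO CB-103 against DMSO), 0.117 for MDM2 and -0.146 for TP53I3 in the CB-103 response, and -0.028 for MDM2 and -0.021 for SESN1 in the GSI response. Replicates 2 and 3 gave -0.039 for TP53I3 (NT GSI), 0.024 for BBC3 (KO GSI), 0.075 for MDM2 (CB-103 response) and 0.059 for GADD45B (GSI response). Without single libraries the range was -0.188 to 0.038 for MDM2, -0.106 to 0.189 for GADD45B, -0.157 to 0.475 for TP53I3 and -0.098 to 0.005 for TNFRSF10B in the CB-103 response and -0.122 to 0.118 for GADD45B in the GSI response. For KO against NT under GSI it was -0.117 to 0.020 for MDM2 and -0.019 to 0.172 for GADD45A, and for BBC3 under DMSO -0.002 to 0.408. Against DMSO it was -0.033 to 0.172 for TP53I3 (NT GSI), -0.046 to 0.091 for ZMAT3 and -0.089 to 0.010 for FAS (KO CB-103), and -0.166 to 0.037 for MDM2, -0.015 to 0.281 for CDKN1A and -0.384 to 0.168 for BBC3 (KO GSI). The cause was not tested. Of 1983 values for 123 results of other named genes, 188 lost the call, 2 gained it and 5 reversed.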
